A study of Mus musculus with 3 samples.

Results

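The genes described here carry out the synthesis, breakdown and sensing of prostaglandins: Pla2g4a, Ptgs1, Ptgs2, Ptges, Hpgds, Tbxas1, Hpgd, Ptger2 and Ptger4. They were taken by gene symbol from the 3 deposited comparison tables, and all 9 had a value at every time, out of 12880 genes with a value in any table. RNA was sequenced from lung macrophages of LysM-GFP mice at 0, 4 and 24 h, in a single library each, around an acute lung injury induced by nebulized lipopolysaccharide (LPS) at 1 mg/ml in saline. All mice were C57BL/6 animals of 6 to 8 weeks. In every group the sorted cells were positive for GFP, which the lysozyme M locus drives in macrophages, monocytes and neutrophils alike, negative for Ly6g and positive for CD64, and the column headings also name CD11b. Whether the 0 h animals inhaled anything, and how many animals gave each library, is not given in the sources used here.

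Prostaglandins are short-lived lipid signals made from arachidonic acid. Cytosolic phospholipase A2 frees the fatty acid from membranes, a cyclooxygenase turns it into the unstable intermediate PGH2, and the terminal synthase that a cell carries sets whether PGE2, PGD2 or thromboxane results. In lung macrophages, cyclooxygenase-2 is the form that bacterial products induce, PGE2 acts back on the macrophage through receptors that raise cyclic AMP, and 15-hydroxyprostaglandin dehydrogenase ends the signal by oxidizing it.

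The libraries held 24825976 (0 h), 20379236 (4 h) and 25135476 (24 h) reads over the genes listed. Levels are reads divided by a size factor, called normalized counts here, and each fold is a plain ratio of 2 libraries with a 95% interval that covers counting error only. With 1 library per time point there is no replicate spread, no test and no p-value, so "higher" and "lower" compare libraries, and a gene is counted as higher or lower when its ratio is past 2-fold. The marker genes of alveolar macrophages were present throughout (15 of 15), but their summed level was 859520 (0 h), 341543 (4 h) and 524245 (24 h) normalized counts. The summed level of classical monocyte markers (11 of 11) was 145579, 592986 and 119186 at those times. Fn1 weighed heavily in that sum. Taken gene by gene, 8 of the 11 were higher and 1 lower at 24 h against 0 h, beside 4.95% and 9.1% of all genes. Their median log2 ratio was 1.69. Of the 15 alveolar macrophage markers, 0 were higher and 1 lower in that comparison, with a median log2 ratio of -0.41. With libraries centred on ribosomal protein genes, 7 of the 15 were lower. Neutrophil markers summed to 5018 (9 of 11 with a value at 0 h), 39671 (10 at 4 h) and 8053 (10 at 24 h). Cell type markers therefore moved with time, most widely at 4 h, and their part in the results below was not tested. In bulk RNA fewer cells of a type and less RNA per cell cannot be told apart. The most abundant marker of each of these lists followed its list in the direction at 4 h: Chil3 (listed as Chi3l3) had 601110, 209378 and 310123 normalized counts at 0, 4 and 24 h, Fn1 had 87223, 131482 and 25383, and Mmp8 had 1516, 15128 and 941. Sex-linked transcripts also separated the libraries, since Xist had 13705, 4 and 1 reads and Ddx3y 4, 3994 and 2357, so sex and time cannot be told apart between 0 h and the later libraries.

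**Figure D1:**
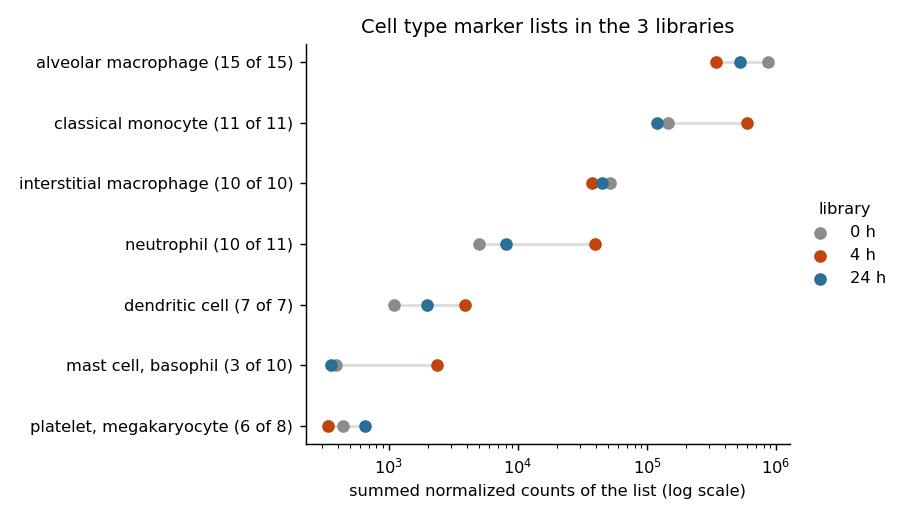
Summed normalized counts (log scale) of marker lists for 7 cell types in the libraries of 0, 4 and 24 h, with the number of markers that had a value in brackets. The classical monocyte sum was 592986 at 4 h, against 145579 at 0 h, and the alveolar macrophage sum was 341543 at 4 h, against 859520 at 0 h.

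At 4 h the inducible cyclooxygenase Ptgs2 and the PGE2 synthase Ptges were far higher than at 0 h, while the thromboxane synthase Tbxas1, the constitutive cyclooxygenase Ptgs1 and the PGD2 synthase Hpgds were lower. At 24 h Ptgs2 and Ptges stood below their 0 h levels, and the breakdown enzyme Hpgd alone of the 9 stood over 2-fold above its own. At 4 h against 0 h, 3 of the 9 genes were higher (Ptgs2, Ptges and Pla2g4a) and 3 were lower (Tbxas1, Ptgs1 and Hpgds), where 15.2% and 14.3% of 12512 genes were. For 24 h against 0 h, 1 was higher (Hpgd) and 1 lower (Ptges), where 4.95% and 9.1% of 12481 genes were. For 24 h against 4 h, 3 were higher (Tbxas1, Hpgds and Hpgd) and 3 lower (Ptgs2, Ptges and Ptger4), where 14.4% and 17.9% of 12684 genes were. The median log2 ratio of the 9 genes was 0.50, -0.36 and 0.30 in these 3 comparisons, beside medians of 0.0036, -0.00085 and 0.0027 over all genes. The 9 genes were chosen with earlier results of these data known, so these shares describe them and say nothing of whether they stand apart. Counts at 24 h depended on the scaling. Centred on ribosomal protein genes, which shifted all log2 ratios by -0.53 at 24 h against 0 h, 1 of the 9 was higher and 4 lower (Ptges, Ptgs2, Ptgs1 and Tbxas1), and scaled by total reads, a shift of 0.17, 1 was higher and 0 lower. Between 24 h and 4 h these scalings gave 1 higher and 4 lower, and 4 higher and 2 lower.

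**Figure D2:**
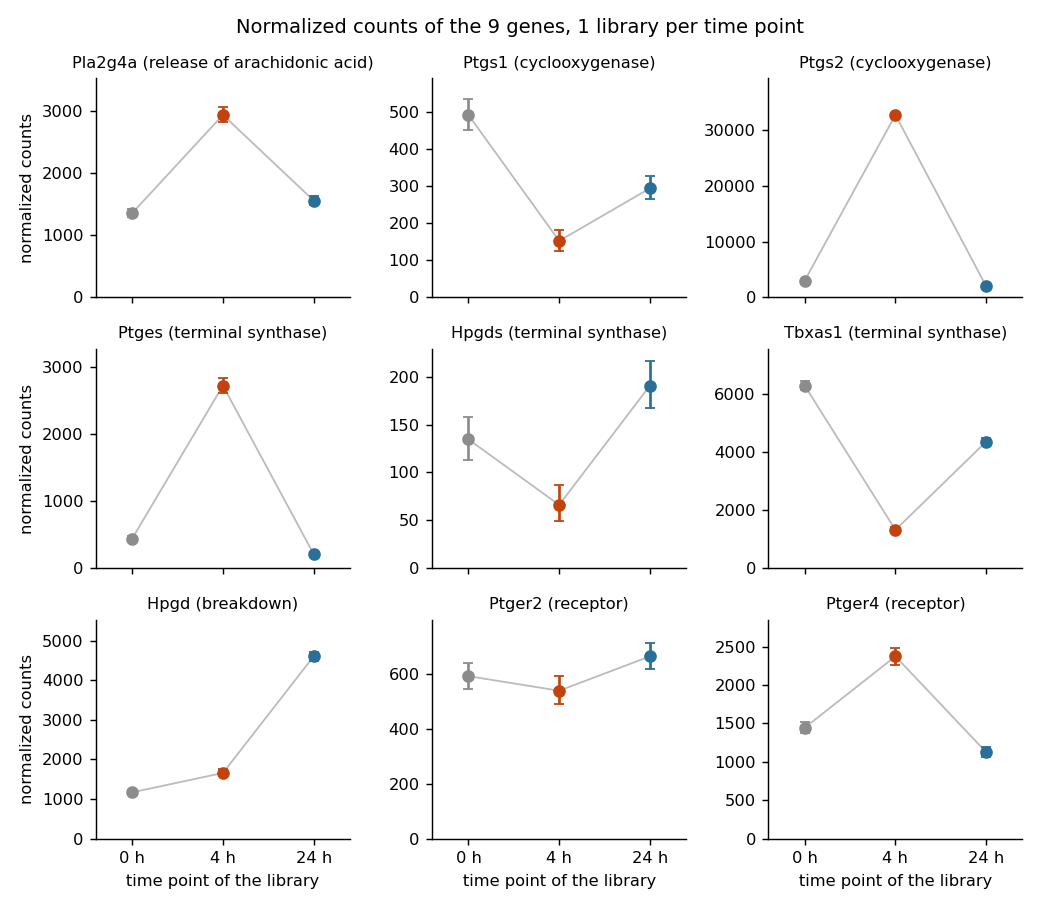
Normalized counts of the 9 genes in the libraries of 0, 4 and 24 h, each panel on its own axis from 0, with 95% counting intervals as bars. Ptgs2, Ptges and Pla2g4a peak at 4 h, Tbxas1, Ptgs1 and Hpgds are lowest at 4 h, and Hpgd is highest at 24 h with 4602 normalized counts.

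Pla2g4a carries out the release step as the cytosolic phospholipase A2 that cuts arachidonic acid from membrane phospholipid (chr1:149829619-149922439, minus strand, mm10). Pla2g4a had 1355 (0 h), 2933 (4 h) and 1556 (24 h) normalized counts. Highest was the 4 h library, at 2.16-fold the 0 h level (2.03 to 2.31), or 1.94-fold when libraries were scaled by total reads. At 24 h Pla2g4a stood at 1.15-fold the 0 h level (1.07 to 1.23), a ratio that was 0.80 when centred on ribosomal protein genes, so its side of the 0 h level depends on the scaling.

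Ptgs2 had the widest range of the 9 genes. Ptgs2, which encodes the inducible cyclooxygenase COX-2, lies on the plus strand at chr1:150100031-150108234 (mm10). It is 177.591 kb from Pla2g4a as the tables place both, and no other gene of the tables lies between them. RefSeq lists 2 genes there, Gm19136 and Ptgs2os. RefSeq also gives Pla2g4a a start nearer to Ptgs2, with the 250 bases before it at chr1:149961291-149961540. Ptgs2 had 3000 (0 h), 32744 (4 h) and 1993 (24 h) normalized counts, from 3212, 25796 and 2426 reads. Ptgs2 at 4 h was 10.9-fold above the 0 h library (10.5 to 11.3), and the 24 h library was 16.4-fold below the 4 h library (15.8 to 17.1) and 1.50-fold below the 0 h library (1.43 to 1.59). At 4 h the Ptgs2 level exceeded that of 99.4% of genes in the library, against 87.2% at 0 h, so transcripts were already abundant in the 0 h cells. All 3 suspensions had been digested for 50 minutes at 37 degrees, and Fos, an immediate early gene, had 44768, 36533 and 59555 normalized counts at 0, 4 and 24 h. The cytokine gene Tnf had 30054, 10411 and 3270, so its level was highest in the 0 h library that serves as the baseline. What the digestion contributed to the Ptgs2 level at 0 h was not tested.

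Ptgs1, which encodes the constitutive cyclooxygenase COX-1 (chr2:36230426-36252271, plus strand), moved the other way. Ptgs1 had 492 (0 h), 152 (4 h) and 294 (24 h) normalized counts. The 4 h library was the low one, 3.23-fold below the 0 h library (2.65 to 3.97), and the 24 h library lay between the others, 1.67-fold below the 0 h library (1.46 to 1.92). Opposite-strand genes overlap 5.16% of the exons of Ptgs1, 4.64% of those of Tbxas1 and 1.87% of those of Ptger2, and whether reads were counted by strand is not given in the sources used here. Per kilobase of exon, Ptgs2 was 3.92 times Ptgs1 at 0 h, 138 times at 4 h and 4.36 times at 24 h, and made up 79.7%, 99.3% and 81.4% of their summed level.

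Ptges carries the symbol of microsomal prostaglandin E synthase-1, the inducible enzyme that converts PGH2 to PGE2. Ptges had 441 (0 h), 2720 (4 h) and 208 (24 h) normalized counts. At 4 h it was 6.17-fold above the 0 h library (5.58 to 6.83), and the 24 h library was 13.1-fold below the 4 h library (11.5 to 15.0) and 2.12-fold below the 0 h library (1.82 to 2.48). The last of these fell short of 2-fold when libraries were scaled by total reads, with a ratio of 0.53. The identity of this row is uncertain. The tables give the Ptges row the description and location of Ptges3 (chr10:128058982-128077254), a cytosolic synthase and co-chaperone for which RefSeq lists Ptges as a synonym, while RefSeq also places Ptges on chromosome 2. Ptges3 has its own row with other values, 655, 773 and 1044 normalized counts at 0, 4 and 24 h, and this is 1 of 102 rows with the same mismatch between symbol and location, so the values are reported under the symbol.

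Tbxas1, which encodes thromboxane A synthase (chr6:38918986-39084579, plus strand), was the most abundant of the 9 genes per kilobase at 0 h. Tbxas1 had 6286 (0 h), 1316 (4 h) and 4355 (24 h) normalized counts. Its 4 h level was 4.78-fold below the 0 h library (4.47 to 5.10), and the 24 h library was 3.31-fold above the 4 h library (3.09 to 3.54) and 1.44-fold below the 0 h library (1.39 to 1.50). Platelets also carry thromboxane synthase and COX-1, and of 8 platelet and megakaryocyte markers those with a value summed to 440 (4 markers, 0 h), 336 (4 markers, 4 h) and 653 (6 markers, 24 h) normalized counts. Gp9 and Gp6 were not analysed here. Pf4, the most abundant of that list, had 187, 85.0 and 401. The part of platelet RNA in the Tbxas1 and Ptgs1 levels was not tested.

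Hpgds, which encodes the hematopoietic prostaglandin D synthase (chr6:65117293-65144730, minus strand), was the least abundant of the 9. Hpgds had 134 (0 h), 66.0 (4 h) and 191 (24 h) normalized counts, from 144, 52 and 232 reads. Its 4 h level was 2.04-fold below the 0 h library, with an interval of 1.47 to 2.85 that includes 2, and the 24 h library was 2.89-fold above the 4 h library (2.13 to 3.98), or 1.99-fold when centred on ribosomal protein genes. At 24 h Hpgds stood at 1.42-fold the 0 h level (1.15 to 1.76), and at 0.98 when centred on ribosomal protein genes. Mast cells also carry this enzyme. Of 10 mast cell and basophil markers only Kit, Gata2 and Hdc had a value, with sums of 391, 2361 and 357 normalized counts at 0, 4 and 24 h, and 2111 of the 4 h sum was Hdc.

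The make-up of the terminal synthases turned over at 4 h. Per kilobase of exon, Ptges made up 5.53% of the summed level of Ptges, Tbxas1 and Hpgds at 0 h, 62.7% at 4 h and 3.76% at 24 h. Tbxas1 made up 92.7%, 35.7% and 92.6% of it, and Hpgds 1.77%, 1.60% and 3.62%. Other PGE synthases are left out of this sum. Per kilobase, Ptges3 had 327, 387 and 522 normalized counts at 0, 4 and 24 h, and Ptges2 71.1, 48.7 and 82.7. Ptges had 121, 746 and 57.0, so the shares describe the summed genes and not all terminal synthases. These shares are taken within a library and do not depend on how libraries are scaled, but those of Ptges use the exon length of the gene RefSeq and GENCODE call Ptges. The transcript level of a synthase is not its activity, and no lipid was measured.

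**Figure D3:**
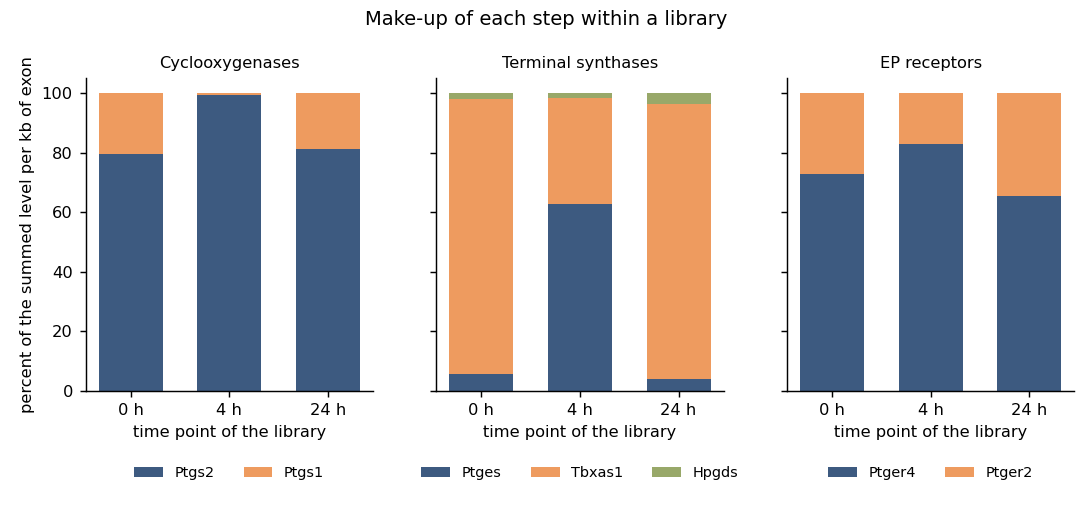
Share of each gene in a summed level per kilobase of exon, in percent, in the libraries of 0, 4 and 24 h. The sums are of the cyclooxygenases Ptgs1 and Ptgs2, the synthases Ptges, Tbxas1 and Hpgds, and the receptors Ptger2 and Ptger4. Ptges makes up 62.7% of the synthase sum at 4 h, against 5.53% at 0 h, and Tbxas1 makes up 92.6% at 24 h.

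Hpgd, which encodes the 15-hydroxyprostaglandin dehydrogenase that inactivates prostaglandins (chr8:56294552-56321046, plus strand), was highest at 24 h, as were Hpgds and Ptger2. Hpgd had 1172 (0 h), 1660 (4 h) and 4602 (24 h) normalized counts. The 4 h library was 1.42-fold above the 0 h library (1.31 to 1.53), the 24 h library 3.93-fold above the 0 h library (3.69 to 4.18) and 2.77-fold above the 4 h library (2.61 to 2.95). Only 0.697% of genes had a higher ratio at 24 h against 0 h. Against 0 h the Hpgd call held under every scaling tried, with ratios of 2.72 to 4.41, while at 24 h against 4 h the ratio was 1.91 when centred on ribosomal protein genes. Per kilobase, Hpgd was 1.03 times Ptgs2 at 0 h, 0.13 times at 4 h and 6.11 times at 24 h.

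Of the 9 genes, the PGE2 receptors Ptger2 and Ptger4 had the narrowest log2 ranges as scaled here. That of Ptger4, 1.07, was close to the 1.11 of Pla2g4a, and their order depends on the scaling. Centred on ribosomal protein genes, the log2 ratio at 24 h against 4 h was -1.61 for Ptger4 and -1.45 for Pla2g4a. Ptger2 and Ptger4 encode EP2 and EP4, which couple to the stimulatory G protein and raise cyclic AMP. Ptger2 (chr14:44988111-45003820, plus strand) had 591 (0 h), 538 (4 h) and 663 (24 h) normalized counts, the narrowest range of the 9. At 4 h against 0 h its ratio was 0.91, and the interval of 0.80 to 1.03 includes 1. At 24 h its ratios were 1.12 against 0 h (1.01 to 1.25) and 1.23 against 4 h (1.09 to 1.39), and both turned below 1 when centred on ribosomal protein genes (0.78 and 0.85).

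Ptger4 (chr15:5233399-5244187, minus strand) had 1444 (0 h), 2372 (4 h) and 1127 (24 h) normalized counts. The 4 h library was the high one, at 1.64-fold the 0 h level (1.54 to 1.76), and the 24 h library was 2.11-fold below it (1.96 to 2.26), or at a ratio of 0.59 when libraries were scaled by total reads. Per kilobase, Ptger4 was 2.70 times Ptger2 at 0 h, 4.88 times at 4 h and 1.88 times at 24 h.

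**Figure D4:**
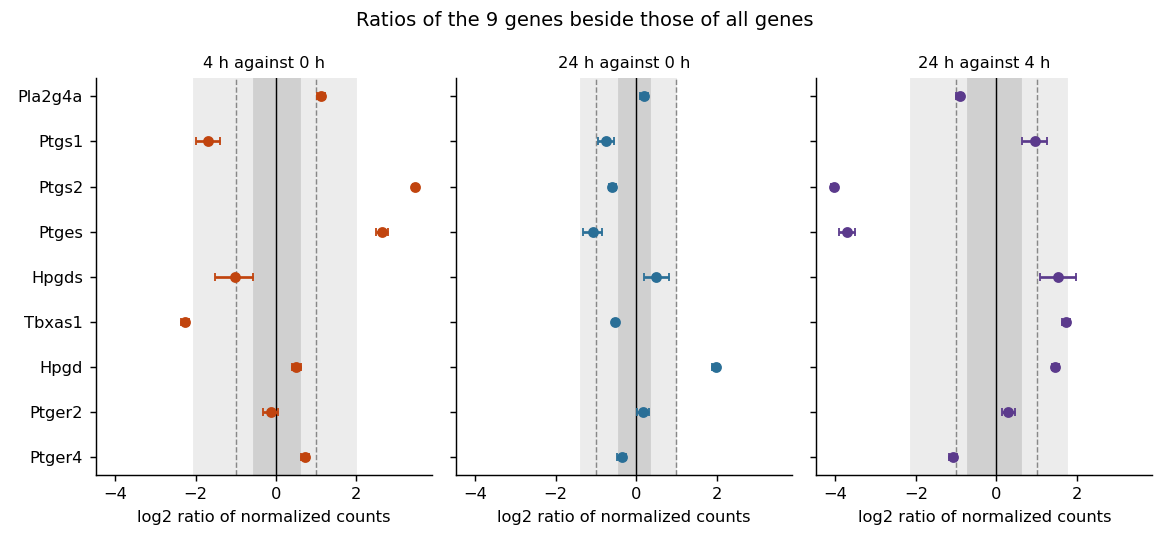
Log2 ratios of the 9 genes in the pairs 4 h over 0 h, 24 h over 0 h and 24 h over 4 h, with 95% counting intervals. Dashed lines mark 2-fold, and the dark and light bands span percentiles 25 to 75 and 5 to 95 of all genes. Ptgs2 at 3.45 and Ptges at 2.63 lie above the light band at 4 h against 0 h, Tbxas1 at -2.26 lies below it, and Hpgd at 1.97 lies above it at 24 h against 0 h.

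Set in order by level per kilobase of exon, the 9 genes were led by a different one at each time. At 0 h Tbxas1 came first with 2026 normalized counts per kilobase, ahead of Hpgd with 696 and Ptgs2 with 674, whose counting intervals overlapped. At 4 h Ptgs2 came first with 7353, ahead of Hpgd with 987 and Pla2g4a with 961, which again overlapped, as did Ptges with 746 and Ptger4 with 713. At 24 h Hpgd came first with 2734, ahead of Tbxas1 with 1404. Of the 9, Hpgds was last at all 3 times, with 38.7, 19.0 and 54.8, and at 24 h its interval overlapped that of Ptges, at 57.0.

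Of the other genes listed with the release of arachidonic acid, most of those measured were low at 4 h. Of 17 listed, 11 had a value. At 4 h against 0 h 8 were lower and 1 higher under each of the 4 scalings, with a median log2 ratio of -1.60. The shares over all genes were 14.3% lower and 15.2% higher. Mgll, the lipase that turns the endocannabinoid 2-arachidonoylglycerol into arachidonic acid, had 6218, 840 and 3209 normalized counts at 0, 4 and 24 h and was 7.40-fold lower at 4 h than at 0 h (6.83 to 8.03). Abhd12, a hydrolase of the same substrate, had 17660, 3666 and 14977 and was 4.82-fold lower (4.63 to 5.01). The group V and group X secreted enzymes were not analysed here. Pla2g6, a calcium-independent phospholipase A2, was 4.16-fold lower at 4 h than at 0 h (3.37 to 5.19), Pla2g15, a lysosomal phospholipase, 2.72-fold (2.62 to 2.83), Abhd6, a hydrolase of monoacylglycerols, 2.94-fold (1.95 to 4.59), and Dagla, which makes 2-arachidonoylglycerol, 3.02-fold (2.52 to 3.64). Pla2g2d, a secreted phospholipase A2, had 91, 15 and 13 reads and was 7.96-fold lower at 24 h than at 0 h (4.43 to 15.5). Pla2g4b was 4.19-fold lower at 4 h (3.08 to 5.80), but 96.5% of its exons overlap another gene on the same strand, so its reads are uncertain. The higher one was Pla2g7, the platelet-activating factor acetylhydrolase, 5.11-fold higher at 4 h than at 0 h (4.90 to 5.33). Pla2g7 had 2611, 13342 and 6884 normalized counts at 0, 4 and 24 h. As an acetylhydrolase it is not read here as a source of arachidonic acid. By 24 h, 6 of the 11 were higher than at 4 h and 0 lower, beside 14.4% and 17.9% of all genes. The counts were 2 and 2 when centred on ribosomal protein genes.

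Some of the genes listed with the return of arachidonic acid to phospholipid, not all of them specific to that fatty acid, were higher at 4 h. Of 9 listed, all with a value, 3 were higher and 1 lower at 4 h against 0 h, with a median log2 ratio of 0.83. The shares over all genes were 15.2% and 14.3%. Mboat1, a lysophospholipid acyltransferase, was 4.03-fold higher (3.16 to 5.19), and the acyl-CoA synthetases Acsl3 and Acsl1 were 2.43-fold (1.93 to 3.09) and 2.18-fold (2.08 to 2.29) higher, although Acsl1 was at 1.95-fold when scaled by total reads. Lpcat3, an acyltransferase that prefers arachidonate, was 2.36-fold lower (2.21 to 2.52). Acsl4, the synthetase that prefers arachidonate, was at 1.91-fold the 0 h level at 4 h (1.80 to 2.03), not past 2-fold. Set against 4 h, 4 of the 9 were lower at 24 h and 0 higher (1 and 1 when scaled by total reads). Over all genes 17.9% were lower and 14.4% higher. Among the lower ones were Acsl4, 2.20-fold (2.06 to 2.33), and Lpcat1, 2.09-fold (1.80 to 2.43).

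Among 10 other prostaglandin synthases and reductases, 8 had a value. At 4 h against 0 h 7 of them could be compared, with 1 higher and 1 lower. The shares over all genes were 15.2% and 14.3%. Cbr1, which can reduce PGE2 to PGF2-alpha, had 568, 165 and 584 normalized counts at 0, 4 and 24 h, 3.44-fold lower at 4 h than at 0 h (2.84 to 4.19). Fam213b (listed as 2810405K02Rik), a prostamide and PGF2-alpha synthase, had 49.5, 123 and 148 and was 2.49-fold higher at 4 h (1.76 to 3.55). Cbr2, a lung carbonyl reductase, had 309, 383 and 625 and was 2.02-fold higher at 24 h than at 0 h (1.77 to 2.31), or 1.40-fold when centred on ribosomal protein genes. Ptges2, a constitutive PGE synthase, had 354, 242 and 412 and was past 2-fold in none of the comparisons, though at 2.13-fold its 4 h level at 24 h when scaled by total reads. With that scaling 5 of 8 were higher at 24 h than at 4 h, against 2 as scaled here, where 14.4% of all genes were. Ptgis, the prostacyclin synthase, had 7 reads at 4 h and 22 at 24 h, too few to place.

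Carriers named below were also higher at 4 h than at 0 h. Of 6 genes for transport and later breakdown, 3 were higher and 0 lower at 4 h against 0 h, with a median log2 ratio of 0.38. The shares over all genes were 15.2% and 14.3%. Scaled by total reads, 2 of the 6 were higher. Slco3a1, an organic anion carrier that moves prostaglandins, had 121, 861 and 141 normalized counts at 0, 4 and 24 h, 7.09-fold higher at 4 h than at 0 h (5.87 to 8.62). Slco2a1, the prostaglandin uptake carrier that delivers PGE2 to the dehydrogenase, had 99.9, 331 and 148 and was 3.32-fold higher (2.64 to 4.19). Abcc4, an exporter of PGE2, had 885, 1924 and 621 and was 2.17-fold higher (2.0 to 2.36), though not past 2-fold when libraries were scaled by total reads. Ptgr1, a reductase that acts after Hpgd, had 546, 366 and 743 and was 2.03-fold higher at 24 h than at 4 h (1.78 to 2.33), or 1.40-fold when centred on ribosomal protein genes.

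Of 7 other prostanoid receptors, 2 had a value and 0 passed 2-fold in any comparison, although Ptgir was 2.15-fold lower at 24 h than at 0 h when centred on ribosomal protein genes. Ptgir, the prostacyclin receptor, had 1351, 765 and 910 normalized counts at 0, 4 and 24 h. Ptger1, the PGE2 receptor EP1, had 1628, 1249 and 1238, but 63.0% of its exons overlap a gene on the opposite strand. Of all 36 other prostanoid genes with a value, 35 could be compared with 0 h. At 4 h 8 were higher and 10 lower, beside 15.2% and 14.3% of all genes. At 24 h 3 were higher and 2 lower, beside 4.95% and 9.1% of all genes. The 24 h counts were 1 and 7 when centred on ribosomal protein genes, and 5 and 2 when scaled by total reads. The median log2 ratios of the 35 genes were -0.36 and -0.08.

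**Figure D5:**
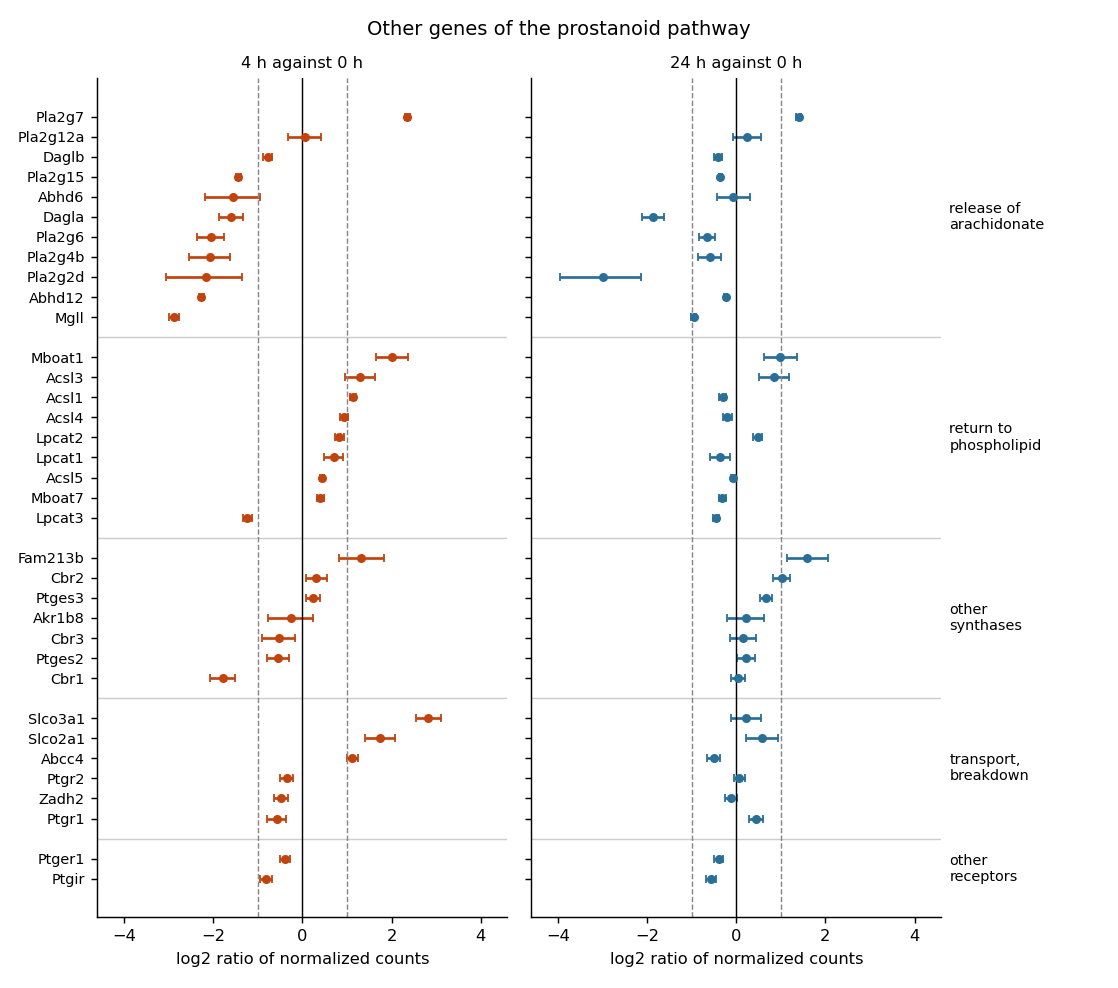
Log2 ratios of 35 other genes of the prostanoid pathway, by role, in the pairs 4 h over 0 h and 24 h over 0 h, with 95% counting intervals and dashed lines at 2-fold. At 4 h against 0 h 8 of the 11 genes listed for release lie below the lower line, where 14.3% of all genes do. Above the upper line lie 3 of the 6 transport and breakdown genes, where 15.2% of all genes do.

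Downstream of EP2 and EP4, the cyclic AMP machinery was mixed at 4 h. Of 27 genes of the pathway, 26 could be compared at 4 h against 0 h. Here 3 were higher and 4 lower, beside 15.2% and 14.3% of all genes, with a median log2 ratio of 0.04. Pde4b, a phosphodiesterase that degrades cyclic AMP, was 2.53-fold higher at 4 h than at 0 h (2.48 to 2.59) and 7.0-fold lower at 24 h than at 4 h (6.78 to 7.23). Creb1, the cyclic AMP response element binding protein, was 2.47-fold higher at 4 h than at 0 h (2.30 to 2.65). Adcy3, an adenylyl cyclase whose exons overlap Cenpo on the opposite strand by 24.3%, was 7.10-fold lower at 4 h than at 0 h (6.49 to 7.78), and the phosphodiesterase Pde4d was 4.47-fold lower (3.69 to 5.46). Prkar2b, a regulatory subunit of protein kinase A, was 2.83-fold higher at 24 h than at 4 h (2.66 to 3.02), and Adcy3 2.79-fold (2.54 to 3.07), but at 1.95-fold and 1.92-fold when centred on ribosomal protein genes. Set against 0 h, 1 was higher at 24 h and 6 lower, beside 4.95% and 9.1% of all genes. These counts were 0 and 13 when centred on ribosomal protein genes, and 2 and 3 when scaled by total reads. The lower ones were led by the adenylyl cyclase Adcy9 at 25 reads, 3.27-fold lower (2.05 to 5.39), and by Pde4b, 2.76-fold lower (2.67 to 2.86). Adcy6, at 83 reads, was 1.87-fold the 0 h level (1.27 to 2.81).

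Several genes that cyclic AMP can induce were low at 24 h. Of 14 listed, 2 were higher and 3 lower at 4 h against 0 h, beside 15.2% and 14.3% of all genes. At 24 h against 0 h 0 were higher and 7 lower, beside 4.95% and 9.1% of all genes. Across the scalings 6 to 11 were lower there. Nr4a3, an orphan nuclear receptor, had 2745, 1847 and 138 normalized counts at 0, 4 and 24 h, 19.9-fold lower at 24 h than at 0 h (17.0 to 23.4). The authors' deposited table gives Nr4a3 a shrunken log2 fold change of only -0.30 for 24 h over 0 h, and past 1 in size for 2 of the 14 genes. Il10, the anti-inflammatory cytokine that PGE2 can raise in macrophages, had 201, 263 and 18.9, 10.6-fold lower at 24 h than at 0 h (6.90 to 17.1). Areg, an EGF receptor ligand, was 6.44-fold lower at 4 h than at 0 h (5.91 to 7.02), and Thbs1, a matrix glycoprotein, 5.31-fold higher (5.22 to 5.40). Sik1, a kinase that restrains this response, had 3960, 4001 and 6049, and Dusp1, a phosphatase of MAP kinases, 28105, 38939 and 31634, with neither past 2-fold. Set against 4 h, Il10 at 24 h was 13.9-fold lower (9.02 to 22.4), and Pde4d was 2.14-fold higher (1.75 to 2.65), or 1.48-fold when centred on ribosomal protein genes.

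Of 20 factors that control Ptgs2 transcription or the stability of its mRNA, 3 were higher and 1 lower at 4 h against 0 h. Over all genes the shares were 15.2% and 14.3%. Cebpd, a C/EBP factor whose exons overlap Spidr on the opposite strand by 15.0%, was 3.47-fold higher (3.17 to 3.80), and Zfp36l1, a protein that marks AU-rich mRNAs for decay, 2.34-fold higher (2.22 to 2.47), although 55.9% of its exons overlap an opposite-strand gene. Cebpa was 4.56-fold lower at 4 h than at 0 h (4.29 to 4.86) and 5.12-fold higher at 24 h than at 4 h (4.81 to 5.44). Zfp36l2, a decay factor of the same family, had 13438, 9909 and 18850 normalized counts at 0, 4 and 24 h. Rel, an NF-kappaB subunit, had 3349, 6192 and 433, 14.3-fold lower at 24 h than at 4 h (13.1 to 15.7), and Fosl2, an AP-1 subunit, 28521, 47432 and 14097, 3.36-fold lower at 24 h than at 4 h (3.30 to 3.43). Cebpb was at 1.82-fold the 0 h level at 24 h (1.79 to 1.86).

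Across 9251 genes, those nearest to the 3 members of widest range were found from the distance between their pairs of log2 ratios, 4 h over 0 h and 24 h over 0 h. Nearest to Ptgs2 were Ccl2, a monocyte chemokine, at a distance of 0.12, Mmp8, a collagenase, and Arg2, a mitochondrial arginase. Ccl2 had 366, 3915 and 263 normalized counts at 0, 4 and 24 h. Nearest to Ptges were Clec4e, a C-type lectin, at 0.04, with 9530, 59994 and 4594 normalized counts, then Kcnj2, a potassium channel, and Il20rb, a cytokine receptor chain. Nearest to Tbxas1 were Rnf144b, a ubiquitin ligase, at 0.03, with 1207, 248 and 832, then Cxcl14, a chemokine, and Marveld1. The distance rests on 3 libraries, and Mmp8 also stands on the neutrophil list.

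The 250 bases before the start of 4 of the genes are given because Ptgs2 and Ptges were high together at 4 h, while Tbxas1 was low and Hpgd peaked later. They are RefSeq windows of GRCm38.p6, written 5′ to 3′ along the gene's strand, at chr1:150099781-150100030 (Ptgs2, plus strand), chr2:30903298-30903547 (Ptges, minus strand), chr6:38918736-38918985 (Tbxas1, plus strand) and chr8:56294302-56294551 (Hpgd, plus strand). Capitals mark matches to the motifs searched, on both strands, in windows that run from 250 bases before to 50 after the start.
Ptgs2: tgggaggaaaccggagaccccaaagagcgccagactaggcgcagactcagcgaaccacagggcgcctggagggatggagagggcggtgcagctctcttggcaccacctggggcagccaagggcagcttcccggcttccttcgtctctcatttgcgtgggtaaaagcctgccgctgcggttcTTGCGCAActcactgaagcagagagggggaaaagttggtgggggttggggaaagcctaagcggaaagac
Ptges: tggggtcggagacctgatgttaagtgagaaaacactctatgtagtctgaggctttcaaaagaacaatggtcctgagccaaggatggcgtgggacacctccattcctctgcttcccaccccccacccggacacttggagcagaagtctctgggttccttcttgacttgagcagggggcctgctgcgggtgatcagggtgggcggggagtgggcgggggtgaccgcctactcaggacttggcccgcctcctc
Tbxas1: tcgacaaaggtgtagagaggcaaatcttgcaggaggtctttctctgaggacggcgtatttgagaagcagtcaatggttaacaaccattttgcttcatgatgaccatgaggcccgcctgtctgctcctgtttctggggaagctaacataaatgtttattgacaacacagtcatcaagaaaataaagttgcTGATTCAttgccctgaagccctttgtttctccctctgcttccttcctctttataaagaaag
Hpgd: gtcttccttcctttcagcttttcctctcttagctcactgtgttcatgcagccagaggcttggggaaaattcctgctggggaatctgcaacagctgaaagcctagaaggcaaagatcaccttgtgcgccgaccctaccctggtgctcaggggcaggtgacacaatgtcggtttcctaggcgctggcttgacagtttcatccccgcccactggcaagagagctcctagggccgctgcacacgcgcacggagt

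The Ptgs2 window held a C/EBP match, TTGCGCAA, at -69 to -62, and an E-box, CACGTG, at +17 to +22. The Tbxas1 window held an AP-1 match, TGATTCA, at -61 to -55, and neither the Ptges nor the Hpgd window held any of the motifs. Elsewhere a C/EBP match lay in the window of Hpgds at -176 to -169 and in that of Ptger2 at +40 to +47. Of all 32851 windows, 10.8% held the C/EBP motif (TTGCNNAA), 7.81% AP-1 (TGANTCA) and 7.15% the E-box (CACGTG). The cyclic AMP response element (TGACGTCA), the interferon-stimulated response element and the NF-kappaB consensus were in 1.79%, 3.44% and 8.46% of windows, and in 0 of the 9 genes' windows. A match is a description of letters, and no match says only that these letters are not in this window. The Ptges window is that of the chromosome 2 gene, with the doubt about the row's identity given above.

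The authors' deposited log2 fold changes, which are shrunken toward 0, kept the direction of the plain ratio for the 9 genes. Counting a deposited log2 value of 1 or more, up or down, took in 4 of the 9 genes for 4 h against 0 h, beside 17.9% of 12512 genes. The same rule took in 1 of the 9 for 24 h against 0 h, beside 2.68% of 12618, and 5 of the 9 for 24 h against 4 h, beside 17.4% of 12578. For 4 h over 0 h the authors' deposited table gave 2.33 for Ptgs2, 1.87 for Ptges, -1.28 for Ptgs1 and -1.69 for Tbxas1, with Pla2g4a at 0.87 and Hpgds at -0.75 falling short. For 24 h over 0 h the authors' deposited table gave 1.24 for Hpgd. For 24 h over 4 h the authors' deposited table gave -2.45 for Ptgs2, -2.30 for Ptges, 1.31 for Tbxas1, 1.14 for Hpgd and 1.08 for Hpgds.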

How the data were processed

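RNA sequencing of sorted mouse lung macrophages gave 1 library per time point (0, 4 and 24 h), grouped by the time in the labels. DESeq2 and the build mm10 are named, per the submitters' processing notes. The name of the aligner, counter or annotation is not given in the sources used here. The deposited signal values are read counts scaled by a size factor of the pair of libraries that a table compares. Whole reads were recovered for 100% of values, within 0.05 reads. The authors' deposited log2 fold changes are of the later over the earlier library and shrunken toward 0. The 1 column headed 4 h in the table of 0 h and 24 h equals the 0 h reads in 12310 of 12310 shared genes, and was given to no sample.

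Levels are reads over size factors, set by the median of ratios across 12481 genes (1.07 at 0 h, 0.788 at 4 h and 1.22 at 24 h). Ratios carry exact 95% Clopper-Pearson intervals, and levels exact Poisson ones, which cover counting error only. No count model was fitted, since 1 library per time leaves no residual degrees of freedom. Levels per kilobase use the union of GENCODE M21 exons. The steps were tested on simulated counts. Alternatives were total reads, TMM factors (edgeR 4.0.16), centring on 75 ribosomal protein genes, a mean of at least 100 normalized counts, a pseudocount of 1 and the deposited fold changes. Python 3.11.15, pandas 2.3.3 and scipy 1.17.1 were used.

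The 9 genes and the lists were chosen with earlier results of these data known. Named genes are the 9, and every other prostanoid gene past 2-fold or the most abundant of a list with none. Also named are the 2 furthest up and down of the cyclic AMP and Ptgs2 regulator lists per comparison. These had at least 50 normalized counts in the higher library. The most abundant gene of each marker list is named too. So are the 3 genes nearest to each of the 3 widest-ranging members, with a mean of at least 100. Some further genes of these lists are named beside them.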

Additional observations from a re-analysis of the deposited data

How the results depend on the processing

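With 1 library per time point no value has a replicate check, and intervals reflect depth alone, which limits genes of few reads such as Hpgds (52 reads at 4 h), Il10 (23 at 24 h) and Ptgis (7 at 4 h). No paired analysis was possible because each time point has 1 library and no result comes from a test. Of 27 ratios of the 9 genes, 4 crossed 1 under some alternative and 11 changed their side of 2-fold, 10 of them under another scaling. The ratios of Ptgs2, Ptges, Tbxas1 and Ptgs1 at 4 h against 0 h and of Hpgd at 24 h against 0 h kept theirs under all 5 alternatives.

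Genes past 2-fold numbered 3700 (4 h over 0 h), 1754 (24 h over 0 h) and 4091 (24 h over 4 h). The authors' deposited log2 fold changes gave 2237, 338 and 2191, since they are shrunken toward 0. At 24 h against 0 h the count was 3182 when centred on ribosomal protein genes. Over the 9839 genes averaging 100 or more normalized counts it was 989, against 1754 of 12481. Of the 9 genes, 2 were past 2-fold at 24 h against 0 h. The count was 1 when scaled by total reads and 5 when centred on ribosomal protein genes, which rests on the shift each scaling makes. By the deposited fold changes, which are shrunken toward 0, the count was 1. Over all genes the share of calls that were higher at 24 h against 0 h was 35.2%, against 50.3% with total reads, 7.07% with ribosomal protein genes and 20.1% with the deposited fold changes. At 24 h against 4 h it was 44.6%, against 64.9% with total reads and 16.8% with ribosomal protein genes.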

Other observations

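The remaining marker lists had these summed levels at 0, 4 and 24 h, with no explanation tested. Interstitial macrophage markers (10 of 10) summed to 51214, 37417 and 44865 normalized counts, with Mrc1 the most abundant of them at 40478, 15215 and 30008. Dendritic cell markers (7 of 7) summed to 1100, 3870 and 1969, including Cd209a with 191, 1523 and 383. Of 9 lymphocyte markers, 2 had a value at 0 h, with a sum of 7.47, while the 8 with a value at the later times summed to 133 (4 h) and 176 (24 h). The eosinophil marker Ccr3 (1 of 4) had 6 reads at 4 h and 26 at 24 h. Lung epithelial markers (9 of 9) summed to 15129, 15701 and 15268, endothelial markers (6 of 6) to 4049, 1999 and 2759, and fibroblast markers (5 of 6) to 261, 531 and 384. Over the 3 libraries the most abundant of these lists were Klrb1c (lymphocytes), Sftpc (epithelium), Vwf (endothelium) and Col3a1 (fibroblasts). Vwf weighed heavily in the endothelial sum, with 3292, 564 and 1533 normalized counts. Taken singly, the 6 endothelial markers had a median log2 ratio of 0.86 for 4 h over 0 h. In that pair 1 of them, Pecam1, passed 2-fold upward and 1 downward. Pecam1 was at 1.81-fold when libraries were scaled by total reads.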
